A study of Mus musculus with 12 samples.

Results

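Pieces of the embryonic mouse cerebral cortex labelled rostral and occipital were compared with each other, separately in each of 2 replicates. The 4 arrays concerned, rostral replicates 1 and 2 and occipital replicates 1 and 2, were taken by their titles from the 12 arrays of the series. The tissue was E16.5 mouse cortex (E, embryonic day), cut into 5 regions (medial, dorsal, ventral, rostral and occipital) or taken as the whole hemisphere. Each of these 6 groups was hybridised to 2 Affymetrix oligonucleotide arrays, from dissections that the labels call independent. The rostral name stands in the array titles, while the protocol has a lateral piece in its place, and the titles are used here. Strain, sex and the number of embryos behind an array are not given in the sources used here. The labels give no treatment or genetic change for any group.

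Cortical areas arise along a rostral to caudal axis. Signals from the rostral pole and from the caudal and medial edge set up gradients of transcription factors in the progenitors, and these gradients bias where frontal, somatosensory and visual areas form. Nr2f1 (also called COUP-TFI) is the standard example of a factor that is high caudally and laterally and low rostrally, and loss of Nr2f1 enlarges frontal areas. Beneath the cortex lie the ganglionic eminences and the striatum, which express another set of genes, among them Lhx8, the Dlx homeobox genes, Penk and Drd2.

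Going by their titles, the rostral and occipital arrays ran against the rostral to caudal gradient of Nr2f1 in replicate 1, and in replicate 2 they did not. Nr2f1 was 19403 on rostral 1 and 3359 on occipital 1, and 2614 on rostral 2 and 10243 on occipital 2. The array labelled rostral 1 therefore held more Nr2f1 than the array labelled occipital 1, while occipital 2 held more than rostral 2. With the piece taken as rostral, the direction in replicate 1 opposes the known rostral to caudal gradient and the direction in replicate 2 follows it. The protocol has a lateral piece in its place, and Nr2f1 is also high laterally, so this reading depends on the title. Whether labels were exchanged was not tested, and every array is named here by its label. Each result on the mean of both replicates is therefore given beside replicate 1 alone and replicate 2 alone.

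All 4 arrays carried cortical projection neuron transcripts. Tbr1, a transcription factor of early cortical neurons, was 17408 on rostral 1, 22658 on occipital 1, 18549 on rostral 2 and 13630.5 on occipital 2. Between 40.4% and 41.5% of the probe sets of these arrays were above 2 times the floor, the level below which values were treated as noise (an average difference of 693.5). Medians ran from 764 to 849. The signal ratio of the 5′ over the 3′ beta-actin probe set, which falls with shorter cDNA, was 0.775 on rostral 1 and 0.831 to 0.856 on the other 3. In the other groups it was 0.604 (hemisphere) to 0.725 (medial) in replicate 1. In replicate 2 it was 0.804 (hemisphere) to 0.887 (medial). Rostral 1 was thus nearer the other replicate 1 arrays, and occipital 1, at 0.831, lay in the range of replicate 2. The part of these ratio differences in the results below was not tested.

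The genes that moved furthest formed 2 sets with mirrored patterns. In the first set, led by Nr2f1, Nr2f2, Crym and Dcn, rostral 1 and occipital 2 were high and rostral 2 and occipital 1 low. In the second, led by Zic1, Lhx8, Ntn1 and Pou3f4, rostral 2 and occipital 1 were high and the other pair low. The rostral minus occipital difference thus had opposite signs in the replicates for both sets, and the crossed differences (rostral 1 minus occipital 2, rostral 2 minus occipital 1) were small. Values are average differences, the mean perfect-match minus mismatch probe signal, which are linear and can be negative. Differences are given as log2 after values under the floor were set to it, so a fold against an array under the floor is a lower bound.

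**Figure D1:**
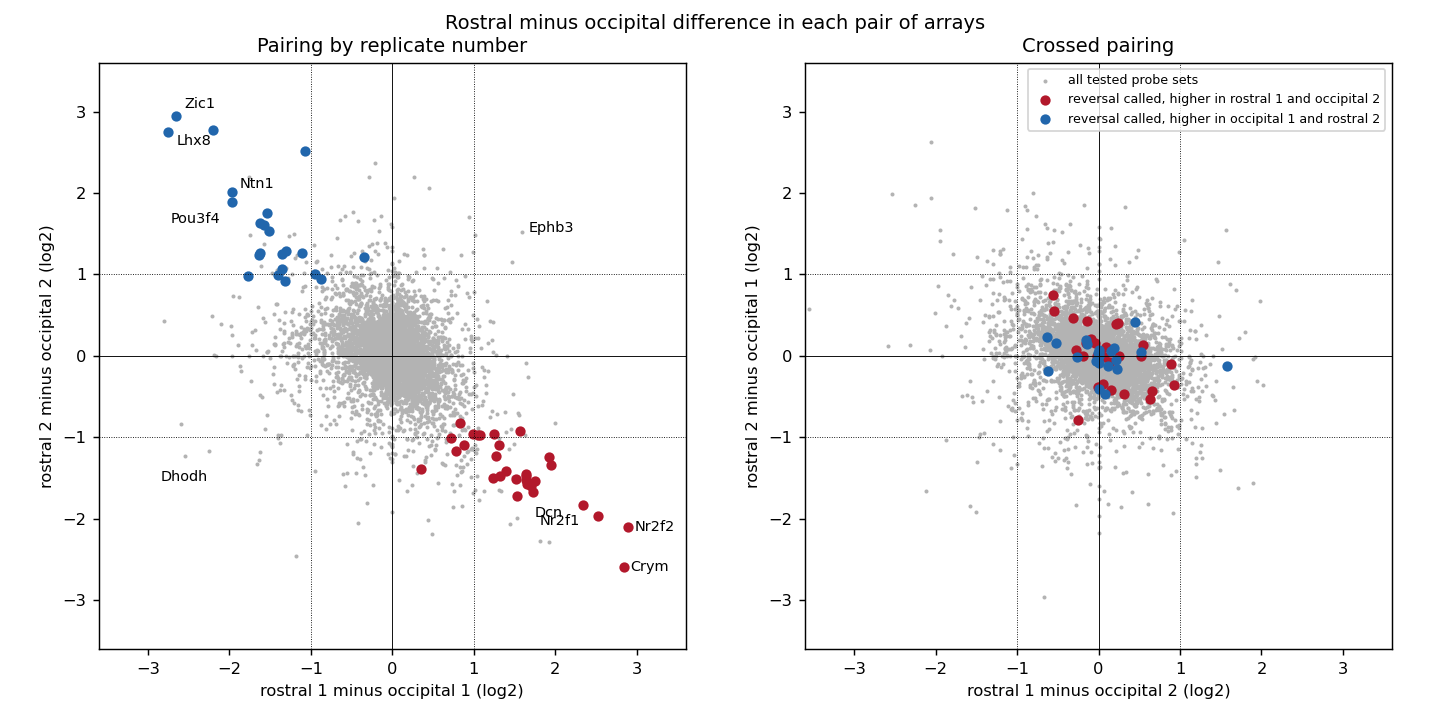
Rostral minus occipital difference (log2) of each of 5832 tested probe sets in replicate 1 (horizontal) against replicate 2 (vertical) on the left, and in the crossed pairs on the right. Red points are the 30 probe sets whose difference reversed with higher values on rostral 1 and occipital 2, blue points the 22 with the opposite reversal, and dotted lines mark 2-fold. The coloured points lie in the upper left and lower right on the left side and, with 1 exception, within 2-fold of no difference on the right side.

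The reversal itself was tested in limma as the difference between the replicate 1 and the replicate 2 contrast. The spread came from the replicate differences of the other 4 groups, and from the mean rostral and occipital replicate difference set against them. Of 5832 tested probe sets, 52 passed (0.892%, Benjamini-Hochberg adjusted p under 0.05). At an unadjusted p under 0.05 there were 700 (12%). Of the 52, 30 (0.514%, 24 named genes) were higher on rostral 1 and occipital 2 and 22 (0.377%, 18 named genes) higher on occipital 1 and rostral 2. In the same 52, 6 had no single gene symbol. All 52 differences had opposite signs in the replicates, and 36 were past 2-fold in both. The first set had a median difference of 1.52 in replicate 1 and -1.43 in replicate 2, and medians of 0.05 and 0 in the crossed pairs. The second set had medians of -1.53 and 1.28, and 0 and 0.01 in the crossed pairs. Both crossed differences were under 2-fold for 30 of 30 and 21 of 22 probe sets. The number called was 22 without either ventral array and 24 without either dorsal array. It was 13 when the shared replicate term was replaced by a replicate term for the rostral and occipital arrays alone. In that fit the spread came from the other 4 groups only, with any replicate shift they share counted in it. All 13 were among the 52.

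Caudal patterning genes led the first set. Nr2f1 was 5.78 times higher on rostral 1 than on occipital 1 and 3.92 times higher on occipital 2 than on rostral 2. Its log2 differences were 2.53 and -1.97, and they differed by 4.50 ± 0.29 (SE, limma adjusted p = 0.00108). The other arrays lay between these extremes, from 6258 on medial 2 to 13368 on ventral 1. Rostral 1 was the highest and rostral 2 the lowest of all 12 arrays for this gene.

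Nr2f2 (COUP-TFII), the related nuclear receptor that marks caudal ganglionic eminence interneurons, followed the same order. It was 6382 on rostral 1 and 861 on occipital 1, and 802 on rostral 2 and 3442 on occipital 2. The replicate differences were 2.89 and -2.10, with a reversal of 4.99 ± 0.56 (SE, limma adjusted p = 0.0115). The 2 high arrays did not overlap the low ones, although the size differed between them. Genes were named by the size of the reversal on these same arrays. Such a separation, here and for the genes below, therefore adds no support. This value comes from a probe set of the _r_ type, whose probes were chosen under relaxed rules, and the call was lost when no filter on low values was applied (limma adjusted p = 0.178).

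Crym, which encodes the thyroid hormone binding protein mu-crystallin, gave the largest reversal of the first set. It was 4974 on rostral 1 and 67.3 on occipital 1, and 295 on rostral 2 and 4191 on occipital 2. Both low arrays were under the floor, so the folds were at least 7.17 in replicate 1 and at least 6.04 in replicate 2. The reversal was 5.44 ± 0.27 (SE, limma adjusted p = 0.000525). Among the other regions Crym was high in the medial piece (4705 and 4357) and under the floor on all 4 dorsal and ventral arrays. After flooring, the dorsal and ventral pieces had no replicate difference, which can make the SE and p smaller. The same holds for Dcn in these pieces, and for Lhx8, Six3 and Drd2, among others, in the medial and dorsal pieces.

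Id1, an inhibitor of basic helix-loop-helix factors, was 2327 on rostral 1 and 634 on occipital 1, and 749 on rostral 2 and 2178 on occipital 2. Its folds were at least 3.35 in replicate 1 and 2.91 in replicate 2, with a reversal of 3.29 ± 0.37 (SE, limma adjusted p = 0.0115). As for Nr2f2, the high and low pairs did not overlap, and nothing is read from that.

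**Figure D2:**
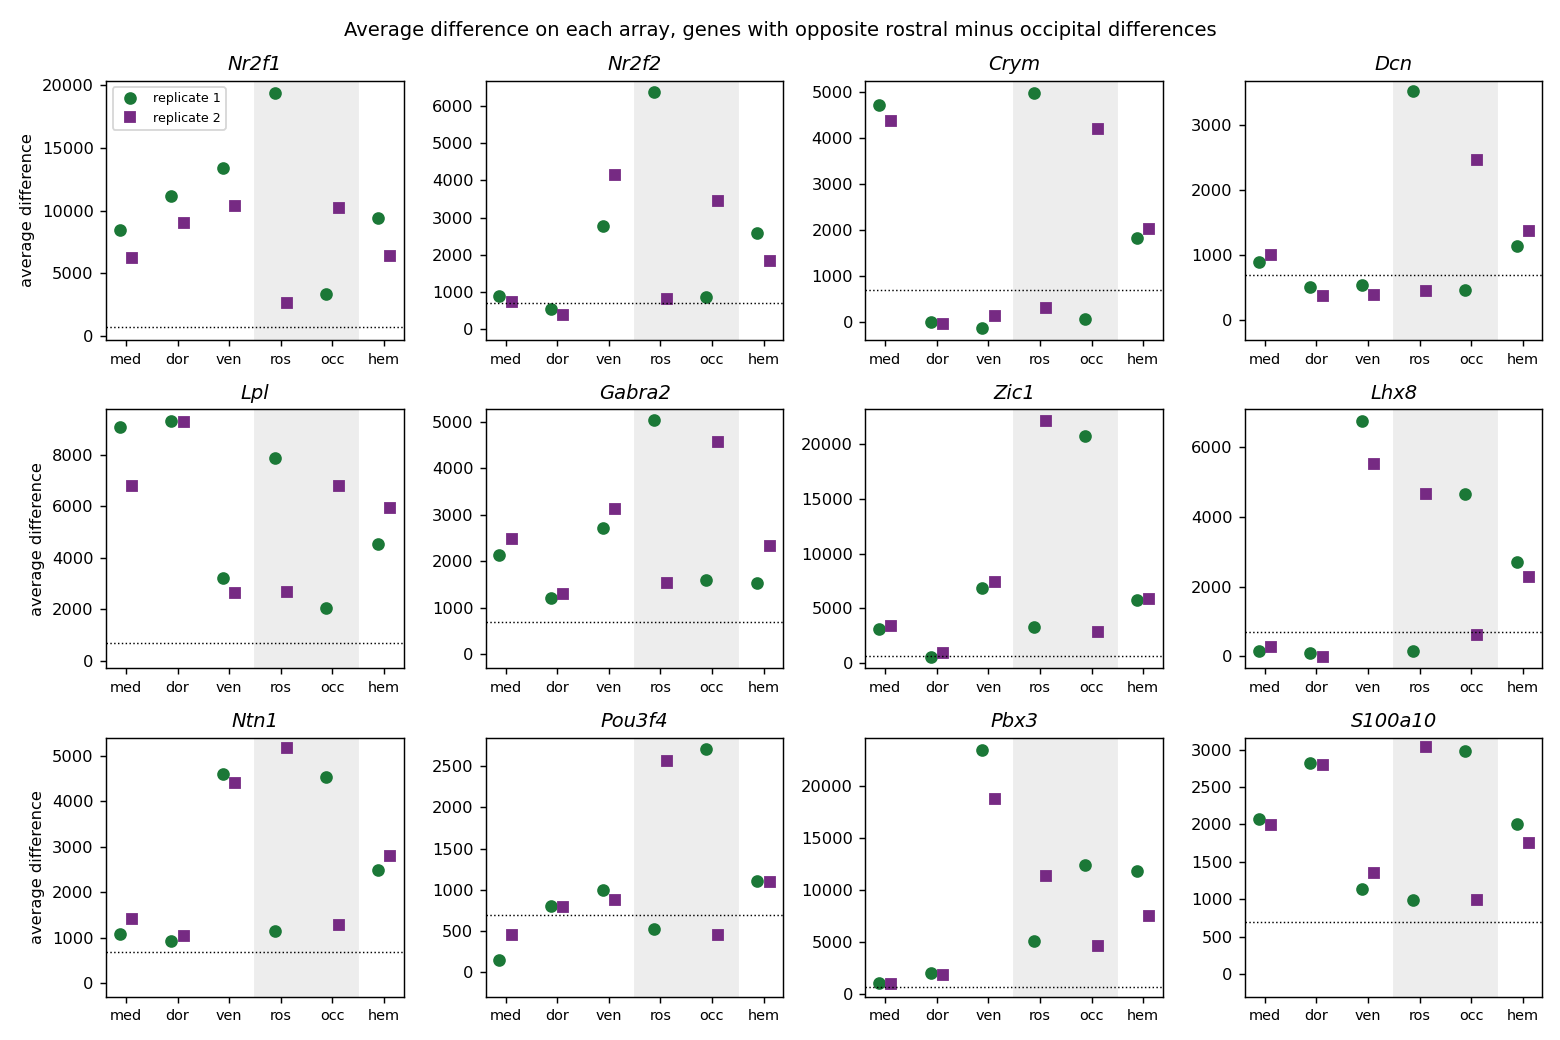
Average difference (linear, vertical) of 12 genes on each of the 12 arrays, with groups on the horizontal axis (med, medial; dor, dorsal; ven, ventral; ros, rostral; occ, occipital; hem, hemisphere), circles for replicate 1, squares for replicate 2 and a dotted line at the floor of 693.5. In the shaded rostral and occipital columns the circle and the square change places, as for Nr2f1, at 19403 on rostral 1 and 2614 on rostral 2, while the replicates of the other groups lie closer together.

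Over the list of genes known as high caudally or occipitally, 4 of 11 tested members passed with higher values on rostral 1 and occipital 2 (Crym, Nr2f1, Nr2f2 and Id1) and 0 in the other direction, against 0.892% of all probe sets. Opposite signs were found for 10 of 11, compared with 3453 of all 5832. The median difference of the list was 0.89 in replicate 1 and -0.26 in replicate 2, beside 0.00 and 0.00 over all tested probe sets. Tenm3, a teneurin adhesion protein, was 4217 on rostral 1, 1333 on occipital 1, 1534 on rostral 2 and 1834 on occipital 2, and its reversal of 1.92 ± 0.68 (SE) did not pass (limma adjusted p = 0.320). Id3 was 2188 on rostral 1, 1179 on occipital 1, 1354 on rostral 2 and 1682 on occipital 2 (limma adjusted p = 0.235). The Wnt effector Lef1 was high on both replicate 2 arrays, 2391 and 2373, against 1569.7 on rostral 1 and 998 on occipital 1. Bmp4, Cdh11, Efna2 and Id2 had reversals between -0.91 and -0.42 log2, and none of these passed in limma (smallest adjusted p = 0.665).

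Beside 0.892% of all probe sets, 1 of 10 tested members of the list known as high rostrally or frontally passed. This was Six3, a homeobox gene of the anterior forebrain that the striatal list also holds, with 337 on rostral 1 and 1827 on occipital 1, and 1379.9 on rostral 2 and 392 on occipital 2. It was thus high on occipital 1 and rostral 2, with a reversal of -2.39 ± 0.29 (SE, limma adjusted p = 0.0169). The list's median difference was -0.58 in replicate 1 and 0.22 in replicate 2. Cdh8, a cadherin of the frontal cortex, was 1098 on rostral 1, 1836 on occipital 1, 2098 on rostral 2 and 1109 on occipital 2 and did not pass (limma adjusted p = 0.112). Dusp6, an inhibitor of FGF signalling to ERK, had differences of -0.42 and 0.70, and Sema7a, an axon growth semaphorin, of -0.76 and 0.39. Etv4, an FGF-induced ETS factor, was lower in the rostral piece in both replicates (-0.81 and -0.90), as was the FGF antagonist Spry4 (-1.07 and -0.29). Lmo4, a LIM protein, differed by 0.16 and 0.25, Pax6 by -0.08 and 0.18, Epha5 by 0.25 and -0.48 and Epha7 by 0.07 and -0.23, and limma called none of these 9 genes. The other tested probe set of Epha5 had larger differences of 0.98 and -1.14, a reversal of 2.12 that did not pass either (limma adjusted p = 0.136).

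Further genes of the first set fell into matrix, lipid and neuronal signalling roles. Dcn, the matrix proteoglycan decorin, was 3521 on rostral 1 and 466 on occipital 1, and 448 on rostral 2 and 2459.9 on occipital 2. Both low arrays were under the floor, and the reversal was 4.17 ± 0.35 (SE, limma adjusted p = 0.00390). Dcn was above 2 times the floor on rostral 1 and occipital 2 only, so it passed the filter through the arrays where it was high. Its call was lost with no filter (limma adjusted p = 0.0599). It was not tested at 2 times the floor or with the filter on at least 6 arrays. Among the 12 tested members of the list of vessels, meninges and matrix, Dcn was the 1 called, against 0.892% of all probe sets. The summed level of that list was 45356 on rostral 1, 41176 on occipital 1, 40987 on rostral 2 and 52439 on occipital 2. The part of meningeal tissue in the Dcn result was not tested. The secreted protein gene Ccdc80 had a reversal of 3.30 ± 0.54 (SE, limma adjusted p = 0.0492), and its call was lost under 12 of 14 alternatives. Leaving out either array of a group outside the comparison gave the same fit, and all such counts hold both.

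Lpl, which encodes lipoprotein lipase, was 7893 on rostral 1 and 2044 on occipital 1, and 2683 on rostral 2 and 6787 on occipital 2. Its reversal was 3.29 ± 0.42 (SE, limma adjusted p = 0.0199), and its other tested probe set gave 3.25 (limma adjusted p = 0.00985). Gabra2, the alpha-2 subunit of the GABA-A receptor, was 5047 on rostral 1 and 1610.0 on occipital 1, and 1532 on rostral 2 and 4560.2 on occipital 2. In both genes each high array was more than 2-fold above each low one. The reversal of Gabra2 was 3.22 ± 0.39 (SE, limma adjusted p = 0.0164). For the probe sets with these array values, both calls were lost under 6 of 16 alternatives, among them leaving out either dorsal array (limma adjusted p = 0.0561 for Gabra2 and 0.0626 for Lpl) or either ventral array (limma adjusted p = 0.0559 and 0.0509).

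The list of synaptic transmission genes had 2 of 28 tested members called, Gabra2 and Thy1, against 0.892% of all probe sets. Thy1, a neuronal surface glycoprotein, was 2873 on rostral 1, 1385 on occipital 1, 1588 on rostral 2 and 3100.3 on occipital 2 (limma adjusted p = 0.0418). Of the 28 list members, 20 were higher in rostral than in occipital tissue in replicate 1 and 6 in replicate 2, and the list medians were 0.08 and -0.20. In the pallial list, Nrp1, a semaphorin receptor of growing axons, was called at 6823 on rostral 1, 2747 on occipital 1, 2029.7 on rostral 2 and 4316 on occipital 2 (limma adjusted p = 0.0492), while its other tested probe set gave 2.10 (limma adjusted p = 0.314). Nrgn, the calmodulin-binding protein neurogranin, was 2044 on rostral 1, 491 on occipital 1, 191 on rostral 2 and 2270.2 on occipital 2 and did not pass (limma adjusted p = 0.139). The calls of Thy1 and Nrp1 were lost under 10 and 12 of 16 alternatives, in both genes without any 1 medial, dorsal or ventral array. The pallial list's medians were 0.32 and -0.33, with 17 of 20 members of opposite sign, compared with 3453 of all 5832 probe sets. Nr4a2, a nuclear receptor gene of the subplate, was 3604 on rostral 1, 946 on occipital 1, 925 on rostral 2 and 4523 on occipital 2, a reversal of 4.22 that did not pass (limma adjusted p = 0.113). The other tested probe set of Nr4a2 gave a reversal of 2.42 (limma adjusted p = 0.391). Zfr2, with differences of 1.81 and -2.27, also did not pass (limma adjusted p = 0.203). The first set further held Ntsr1, Cck, Bcan, Gja1, Zbtb17, Dock9, Smyd2, Cacng2, Cachd1, Gna11, Ap3b1, Mfsd1 and Rps4l, which lie outside the rule for naming genes and were listed after their values were seen.

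Genes of the basal forebrain and striatum led the second set. Zic1, a zinc finger factor of the septum and medial forebrain, was 3284 on rostral 1 and 20733 on occipital 1, and 22097 on rostral 2 and 2878 on occipital 2. It was 6.31 times higher on occipital 1 than on rostral 1 and 7.68 times higher on rostral 2 than on occipital 2, and the reversal was -5.60 ± 0.31 (SE, limma adjusted p = 0.000525). Both high arrays exceeded all 8 arrays of the other groups, where the highest value was 7452 on ventral 2.

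Lhx8, a LIM homeobox factor that specifies cholinergic neurons from the medial ganglionic eminence, was 152 on rostral 1 and 4665 on occipital 1, and 4648 on rostral 2 and 617 on occipital 2. Rostral 1 and occipital 2 were under the floor, so the folds were at least 6.73 and at least 6.70. The reversal was -5.49 ± 0.29 (SE, limma adjusted p = 0.000525). Lhx8 was 6752 and 5537 on the ventral arrays and under the floor on all 4 medial and dorsal arrays. As for Crym, the floored pieces had no replicate difference in the fit, and the SE and p rest in part on that.

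The promoter windows of Nr2f2, Nr2f1, Zic1 and Lhx8, the 4 transcription factor genes with the largest reversals called, are printed here because their transcripts mark the 2 sets. Each runs from 250 bases before to 50 after an annotated start (RefSeq, GRCm38.p6), on the minus strand and 5′ to 3′, with CG dinucleotides in capitals. Nr2f1 has 2 windows, chr13:78196400-78196699 with 4 CG and chr13:78198824-78199123 with 23. The Nr2f2 window, chr7:70366697-70366996, has 2 CG. The Zic1 window, chr9:91365719-91366018, has 31 CG and the Lhx8 window, chr3:154330511-154330810, has 4.
Nr2f2: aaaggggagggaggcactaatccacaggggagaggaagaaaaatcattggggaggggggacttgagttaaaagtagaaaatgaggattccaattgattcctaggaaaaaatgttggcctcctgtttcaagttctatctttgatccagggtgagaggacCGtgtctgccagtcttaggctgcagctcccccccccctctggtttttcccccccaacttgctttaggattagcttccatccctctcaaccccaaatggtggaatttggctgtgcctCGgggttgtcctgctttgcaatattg
Nr2f1 first window: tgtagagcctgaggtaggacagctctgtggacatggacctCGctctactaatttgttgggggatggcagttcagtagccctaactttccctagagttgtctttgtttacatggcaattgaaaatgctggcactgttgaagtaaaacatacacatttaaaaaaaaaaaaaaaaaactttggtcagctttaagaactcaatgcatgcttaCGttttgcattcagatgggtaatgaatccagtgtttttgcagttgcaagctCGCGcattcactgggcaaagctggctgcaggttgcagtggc
Nr2f1 second window: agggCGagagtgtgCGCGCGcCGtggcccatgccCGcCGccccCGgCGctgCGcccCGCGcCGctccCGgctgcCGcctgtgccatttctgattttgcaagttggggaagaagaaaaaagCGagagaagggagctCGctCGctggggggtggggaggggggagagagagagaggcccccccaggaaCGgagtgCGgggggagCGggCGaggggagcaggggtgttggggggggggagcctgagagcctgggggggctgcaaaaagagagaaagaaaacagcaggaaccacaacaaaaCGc
Zic1: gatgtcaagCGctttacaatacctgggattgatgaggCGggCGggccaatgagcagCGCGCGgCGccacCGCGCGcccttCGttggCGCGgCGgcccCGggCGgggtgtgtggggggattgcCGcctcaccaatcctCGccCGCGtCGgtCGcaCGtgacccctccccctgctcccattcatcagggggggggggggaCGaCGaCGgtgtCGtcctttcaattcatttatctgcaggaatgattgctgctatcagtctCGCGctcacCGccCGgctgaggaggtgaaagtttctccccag
Lhx8: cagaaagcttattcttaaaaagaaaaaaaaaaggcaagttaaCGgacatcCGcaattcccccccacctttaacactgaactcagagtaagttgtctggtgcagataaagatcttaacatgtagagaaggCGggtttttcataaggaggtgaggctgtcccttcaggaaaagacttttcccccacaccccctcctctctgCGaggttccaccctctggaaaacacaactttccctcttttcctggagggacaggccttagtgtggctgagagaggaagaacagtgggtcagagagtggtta
The median over the windows of the genes tested was 22 CG, and the Zic1 window lay above it and the Nr2f2 and Lhx8 windows below it. AGGTCA, the half-site that nuclear receptors such as Nr2f1 recognise, was searched on both strands and is absent from these 5 windows. It was found in 3 of 20 windows of genes of the first set (15%), in 2 of 14 of the second (14.29%) and in 12.15% of the windows of all genes tested. The table of promoters held 16 and 13 of the named genes of the sets.

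Ntn1, the secreted axon guidance protein netrin-1, was 1153 on rostral 1 and 4527 on occipital 1, and 5170.2 on rostral 2 and 1279.9 on occipital 2. Its folds were 3.93 and 4.04, and the reversal was -3.99 ± 0.29 (SE, limma adjusted p = 0.00204). Pou3f4, a POU domain factor of the striatal anlage, was 519 on rostral 1 and 2714 on occipital 1, and 2564 on rostral 2 and 452 on occipital 2. The high pair exceeded the low pair by at least 3.91 times in replicate 1 and at least 3.70 times in replicate 2, with a reversal of -3.85 ± 0.25 (SE, limma adjusted p = 0.00108). Only on occipital 1 and rostral 2 was Pou3f4 above 2 times the floor, so it passed the filter through its high arrays. Its call was kept with no filter (limma adjusted p = 0.00624).

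S100a10, the partner of annexin A2, was 997 on rostral 1 and 2975 on occipital 1, and 3038 on rostral 2 and 994 on occipital 2. Gucy1b1, the beta subunit of soluble guanylate cyclase, was 1414 on rostral 1 and 4036 on occipital 1, and 4130.3 on rostral 2 and 1424 on occipital 2. In both genes the 2 high arrays lay close together, as did the 2 low ones. Their reversals were -3.19 ± 0.29 (SE, limma adjusted p = 0.00478) and -3.05 ± 0.26 (SE, limma adjusted p = 0.00417). Sfrp1, a secreted Wnt antagonist of progenitors, was 1592 on rostral 1 and 4947 on occipital 1, and 3565 on rostral 2 and 1506 on occipital 2, with a reversal of -2.88 ± 0.38 (SE, limma adjusted p = 0.0221). Its call was lost under 5 of 16 alternatives, among them leaving out either dorsal array (limma adjusted p = 0.0698). Lratd1 reversed by -3.30 ± 0.34 (SE, limma adjusted p = 0.00881). Sprr2e, from a family of epithelial envelope proteins with near-identical copies, reversed by -3.58 ± 0.56 (SE, limma adjusted p = 0.0430), on a probe set shared by the family, and lost its call under 11 of 16 alternatives. Adcy2, an adenylyl cyclase, was 893 on rostral 1, 3018 on occipital 1, 3171 on rostral 2 and 402 on occipital 2 and did not pass (limma adjusted p = 0.0813). Ttc1, Chchd10 and Cdkn1a were also called and were listed after their values were seen.

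Of 10 tested genes of striatal projection neurons, 5 passed in limma for reversal, against 0.892% of all probe sets. All 5 were higher on occipital 1 and rostral 2 (Penk, Pbx3, Meis2, Six3 and Drd2). All 10 list members had opposite signs in the replicates, compared with 3453 of all 5832 probe sets. The median difference was -1.21 in replicate 1 and 0.98 in replicate 2. The summed level of the list was 18598 on rostral 1 and 19990.1 on occipital 2, against 30039.5 on rostral 2 and 35808 on occipital 1. It was 59710.4 to 65948 on the ventral arrays and 10951 to 15356 on the medial and dorsal ones. For the probe set of highest mean among the called ones of each gene, all 5 calls were lost without either dorsal array (limma adjusted p from 0.0626 to 0.0934). All 5 were also lost with a replicate term for the rostral and occipital arrays alone (limma adjusted p from 0.0564 to 0.225). Over all alternatives run, Meis2 lost its call under 10 of 14, Drd2 under 8 of 14, Penk under 8 of 16, Pbx3 under 6 of 16 and Six3 under 5 of 14. In bulk tissue, fewer cells of a type and less RNA per cell cannot be told apart, and the part of striatal tissue in the other results of this comparison was not tested.

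Penk, the enkephalin precursor, was 911 on rostral 1 and 3119.7 on occipital 1, and 2748 on rostral 2 and 1396 on occipital 2. Drd2, the dopamine receptor of striatopallidal neurons, was 482 on rostral 1 and 1269 on occipital 1, and 1332 on rostral 2 and 659 on occipital 2. Meis2, a homeobox factor of the lateral ganglionic eminence, was 849 on rostral 1 and 1834 on occipital 1, and 1767 on rostral 2 and 733 on occipital 2. All 3 were higher on the same pair of arrays, and Drd2 was under the floor on both arrays of the low pair. The reversals were -2.75, -1.81 and -2.38, with limma adjusted p of 0.0223, 0.0241 and 0.0226. The second probe set of Penk disagreed, with a reversal of 1.03 (limma adjusted p = 0.727). Pbx3, a homeobox cofactor, was 5041 on rostral 1 and 12429 on occipital 1, and 11381 on rostral 2 and 4648 on occipital 2, and its 3 tested probe sets gave -2.61, -2.59 and -2.41, each called in limma. Tac1, the substance P precursor, at 398 on rostral 1, 2322 on occipital 1, 1947 on rostral 2 and 445 on occipital 2, and Ngef, a guanine nucleotide exchange factor, at 2005 on rostral 1, 5349.6 on occipital 1, 3198 on rostral 2 and 1540.1 on occipital 2, did not pass (limma adjusted p = 0.120 and 0.160).

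Of 16 tested genes of GABAergic cells and ganglionic eminences, Lhx8 and Dlx1 passed in this direction and Nr2f2 and Calb1 in the other. Over all probe sets, 0.892% passed in either direction. Dlx1, a homeobox factor of interneuron progenitors, was 8829.7 on rostral 1 and 16988 on occipital 1, and 15155 on rostral 2 and 7554 on occipital 2, a reversal of -1.95 ± 0.25 (SE, limma adjusted p = 0.0207). Calb1, the calcium buffer calbindin, was 2494 on rostral 1 and 1178 on occipital 1, and 1358 on rostral 2 and 2653 on occipital 2, a reversal of 2.05 ± 0.28 (SE, limma adjusted p = 0.0226). Calb1 lost its call under 11 of 16 alternatives and Dlx1 under 5 of 16, among them leaving out either dorsal or either ventral array for both. The list's median differences were -0.51 and 0.53, and 14 of 16 members had opposite signs, compared with 3453 of all 5832 probe sets.

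**Figure D3:**
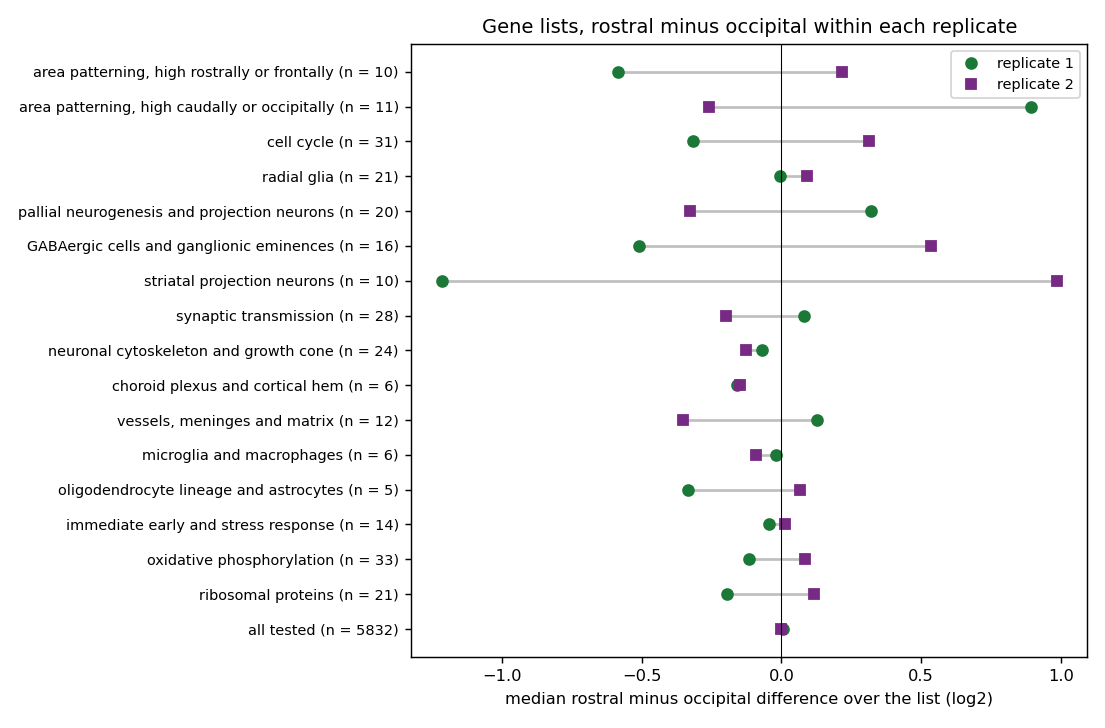
Median rostral minus occipital difference (log2) of each gene list with at least 5 tested members, in replicate 1 (circles) and replicate 2 (squares), with all tested probe sets at the bottom. The striatal list lies at -1.21 and 0.98 and the caudal patterning list at 0.89 and -0.26, while all tested probe sets are at 0.00 in both.

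In the cell cycle, ribosomal and oxidative phosphorylation lists limma called 0 genes, and most members were lower in rostral tissue in replicate 1 and higher in replicate 2 by small amounts. Of 31 tested cell cycle genes, 1 was higher in rostral than occipital tissue in replicate 1 and 26 in replicate 2, with medians of -0.32 and 0.31. Top2a, the topoisomerase of dividing cells, was 1452 on rostral 1, 2080.4 on occipital 1, 1928 on rostral 2 and 944 on occipital 2 (reversal -1.55, limma adjusted p = 0.158). The ribonucleotide reductase subunit Rrm2 was 2831 on rostral 1, 3951 on occipital 1, 4092 on rostral 2 and 2875 on occipital 2 (reversal -0.99, limma adjusted p = 0.153). Both lie outside the rule for naming genes, and the median reversal of the cell cycle list was smaller, at -0.56. Of 21 ribosomal protein genes, 1 was higher in replicate 1 and 16 in replicate 2, with medians of -0.20 and 0.12. Of 33 oxidative phosphorylation genes, 4 and 24 were higher, with medians of -0.12 and 0.08. Over all tested probe sets, 2956 and 2905 were higher in the rostral array. Of the 21 radial glia genes, Sfrp1 was the 1 called, and the medians were -0.01 and 0.09. The lists of choroid plexus, blood, microglia, oligodendrocyte lineage, Cajal-Retzius and subplate, cytoskeletal, immediate early and sex-linked genes had 0 members called by limma for reversal, among 6, 4, 6, 5, 4, 24, 14 and 2 tested. In the list of thalamus and hypothalamus the 1 called among 4 was Six3, and 0.892% of all tested probe sets were called.

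The called genes differed in which other region held most of their transcripts. Among the medial, dorsal and ventral means, the ventral one was the highest for 18 of the 22 probe sets of the second set, compared with 38.3% of all tested probe sets. For the 30 probe sets of the first set, the highest mean was medial for 12 (40.0%), dorsal for 5 (16.7%) and ventral for 13 (43.3%). Over all tested probe sets these shares were 36.4%, 25.3% and 38.3%, so the first set lay near them. For 50 of the 52 the hemisphere mean lay within the range of the 4 rostral and occipital arrays, and over all tested probe sets for 66.2%. The 52 were chosen on the spread of these 4 arrays, so nothing is read from that share.

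**Figure D4:**
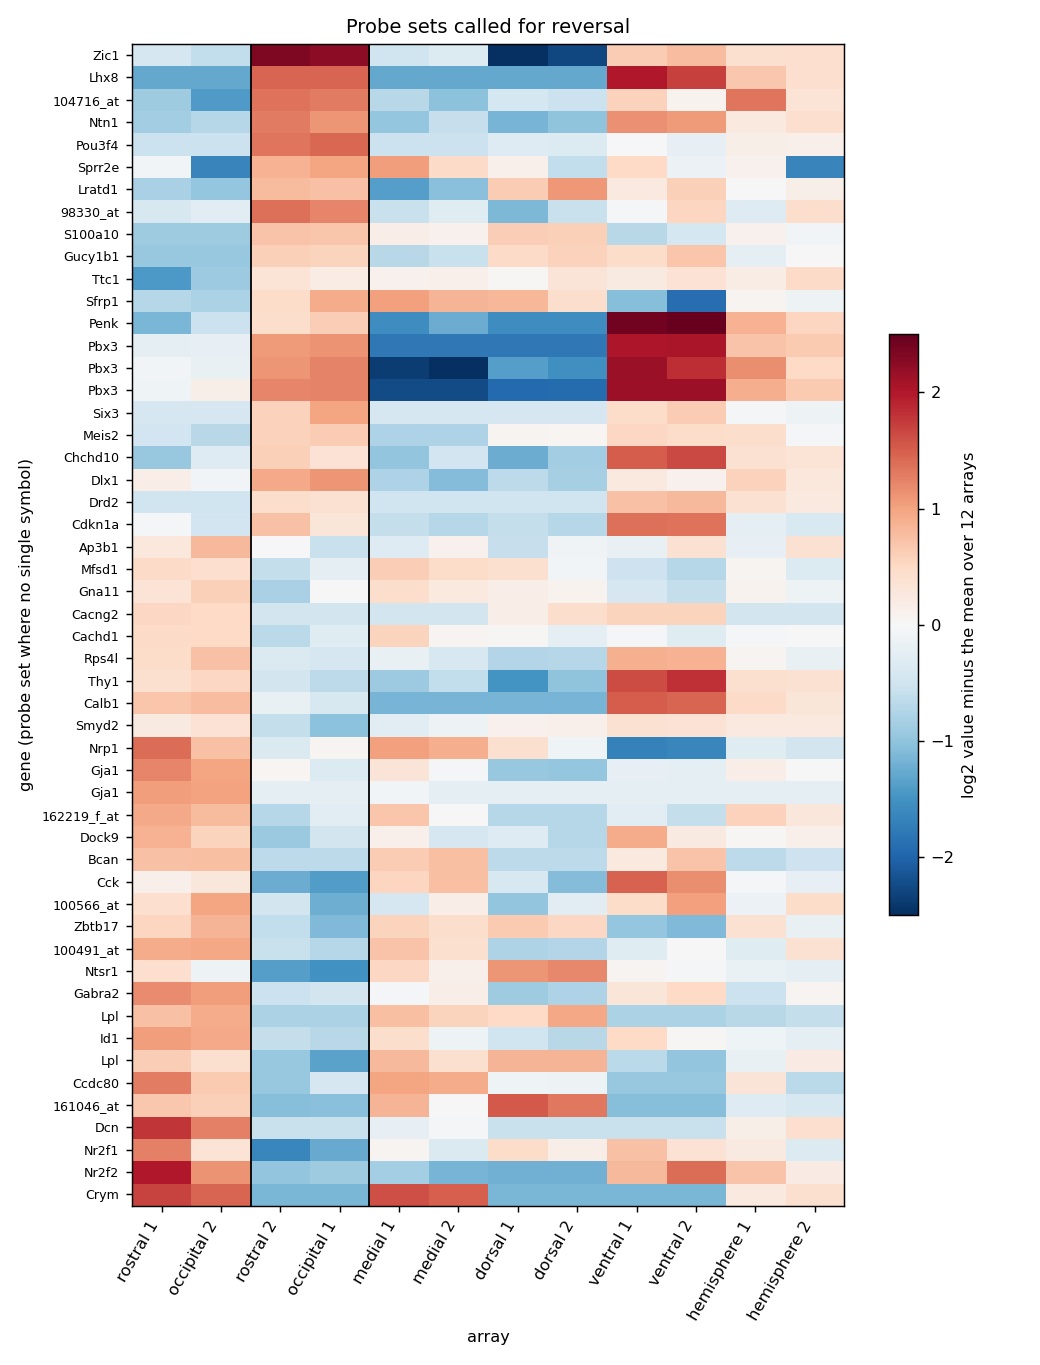
Log2 value minus the mean over 12 arrays (colour) of the 52 probe sets called for reversal, with genes or probe sets down the side and arrays along the bottom, the rostral and occipital arrays in crossed pairs at the left. Rostral 1 and occipital 2 share their colour in most lines, as do rostral 2 and occipital 1, and in the upper 22 lines the ventral arrays hold the highest mean of the medial, dorsal and ventral pieces for 18.

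Counted without a test, 92 probe sets (1.58%) were more than 2-fold higher in rostral than in occipital tissue in replicate 1 and 189 (3.24%) lower. In replicate 2 the counts were 109 (1.87%) higher and 151 (2.59%) lower. Of 84 past 2-fold in both replicates, 73 (1.25%) had opposite signs and 11 (0.189%) the same sign. Of the 73, 42 (0.72%) were higher on rostral 1 and occipital 2 and 31 (0.532%) higher on occipital 1 and rostral 2, and for 72 both crossed differences were under 2-fold. Limma called 36 of the 73. At 0.5 times the floor the counts of opposite and same sign were 134 and 26, and at 2 times the floor 33 and 3.

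The 11 probe sets of the same sign comprised 3 (0.0514%) higher and 8 (0.137%) lower in the rostral piece. Ephb3, a receptor for B-type ephrins, was 2184 on rostral 1, 725 on occipital 1, 2121 on rostral 2 and 738 on occipital 2, so both rostral arrays were higher than both occipital ones, 3.01-fold in replicate 1 and 2.88-fold in replicate 2. Its rostral minus occipital difference was 1.56 ± 0.55 (SE), with a limma adjusted p of 1. The replicates of other groups differed too, with 831 and 1874 in the dorsal piece. Pcp2, known from Purkinje cells, was 3402 on rostral 1, 1678 on occipital 1, 2941 on rostral 2 and 1052 on occipital 2.

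Lower in both replicates were Dhodh, an enzyme of pyrimidine synthesis, Got2, a mitochondrial aminotransferase, Dhps, the deoxyhypusine synthase, the early response gene Ier3, and the Sprr2i and Sprr2k copies of the Sprr2 family. Ier3 was 842 on rostral 1, 2226 on occipital 1, 1143 on rostral 2 and 2307 on occipital 2, with no overlap between the regions. Dhps was 227 on rostral 1, 1801 on occipital 1, 342 on rostral 2 and 1455 on occipital 2, with both rostral arrays under the floor. The lower 8 also held a probe set each of Dda1 (-2.25 and -1.17) and Phf7 (-1.67 and -1.32), named after their values were seen. These genes fall outside the rule because their probe sets of highest mean differed by 0.18 and 0.26 for Dda1 and by -0.14 and -0.06 for Phf7. The second probe set of Dhodh did not share the direction, with differences of 0.25 and -0.53. Of the 11 probe sets, 5 were of the _r_ type (45.5%), compared with 4.84% of all tested and 9.59% of the 73 of opposite sign. Their median average difference was 1766, beside 1792 for the 73 and 3503 for all tested.

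In the fit of both replicates together, limma called 0 of 5832 probe sets for rostral minus occipital (0%), with 62 at an unadjusted p under 0.05 (1.06%) and a smallest adjusted p of 1. The count was also 0 under the other floors, filters, scalings and blocks tried. For Nr2f1 the rostral mean was 11009 ± 11872 (SD, n = 2) and the occipital mean 6801 ± 4867 (SD, n = 2), and for Zic1 they were 12690.5 ± 13303 (SD, n = 2) and 11805 ± 12626 (SD, n = 2). The spread within each region was larger than the difference between them. The 5 genes of smallest p were Lrch4, Tmem11, Tpgs1, Srp9 and Slc22a12, with the same sign in both replicates. Srp9, a subunit of the signal recognition particle, was 3937 on rostral 1, 2393 on occipital 1, 3574 on rostral 2 and 2053 on occipital 2, and Lrch4 was 1489 on rostral 1, 2452 on occipital 1, 1319 on rostral 2 and 2267 on occipital 2. Their differences of 0.76 ± 0.19 and -0.75 ± 0.17 (SE) had limma adjusted p of 1.

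With replicate 1 alone, 1 array stood on each side and the spread came from the other groups. Limma then called 1 probe set (0.0171%), Crym, higher on rostral 1 (adjusted p = 0.0325), and 212 had an unadjusted p under 0.05. With replicate 2 alone it called 3 (0.0514%), Zic1 and Lhx8 higher and Crym lower on rostral 2 (limma adjusted p = 0.0351 for each), and 257 had an unadjusted p under 0.05. Crym was thus called with opposite signs in the 2 replicates. Zic1 and Lhx8 in replicate 1 alone each had a limma adjusted p of 0.0510.

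In the crossed pairing, 266 probe sets (4.56%) were past 2-fold between rostral 1 and occipital 2 and 164 (2.81%) between rostral 2 and occipital 1. Of 44 past 2-fold in both, 13 (0.223%) had the same sign, of which 7 were among the 11 of the matched pairing. The other 31 (0.532%) had opposite signs, and 0 of them were among the 73 or were called by limma for reversal. A crossed difference sets a replicate 1 array against a replicate 2 array. Of the 31, 11 were higher on both replicate 1 arrays, and 8 of these were also higher in replicate 1 in the mean of the other 4 groups. The remaining 20 were higher on both replicate 2 arrays, as they were in the mean of the other 4 groups for 20 of 20. Clgn, a testis chaperone, was 731 on rostral 1, 1063 on occipital 1, 3842 on rostral 2 and 3496 on occipital 2, and Map1b, a microtubule-associated protein, was 2712 on rostral 1, 2504 on occipital 1, 853 on rostral 2 and 729 on occipital 2 (both chosen after their values were seen). These genes separated the replicate numbers and not the regions.

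Across the 5832 probe sets, the difference in replicate 1 correlated with that in replicate 2 at r = -0.354 for rostral minus occipital. The value was -0.307 in the crossed pairing. For the other 9 pairs of regions the correlation by replicate number ran from 0.055 (medial minus occipital) to 0.768 (dorsal minus ventral). In the crossed pairing these 9 ran from -0.237 (medial minus rostral) to 0.410 (medial minus ventral), each below its value by replicate number. A replicate shift shared by the groups enters the 2 crossed differences with opposite signs. Probe sets are not independent replicates, so these are descriptions. Dorsal minus ventral had 272 probe sets past 2-fold in both replicates with the same sign and 1 with opposite signs, where rostral minus occipital had 11 and 73. Medial minus occipital had 38 and 48. Against the hemisphere, which contains all regions, the rostral and occipital pieces also fell below 0. The values were r = -0.058 for rostral minus hemisphere (16 of the same sign and 25 of opposite signs) and r = -0.101 for occipital minus hemisphere (12 and 14). The medial, dorsal and ventral pieces lay above 0 against the hemisphere, at r = 0.293, 0.208 and 0.382.

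**Figure D5:**
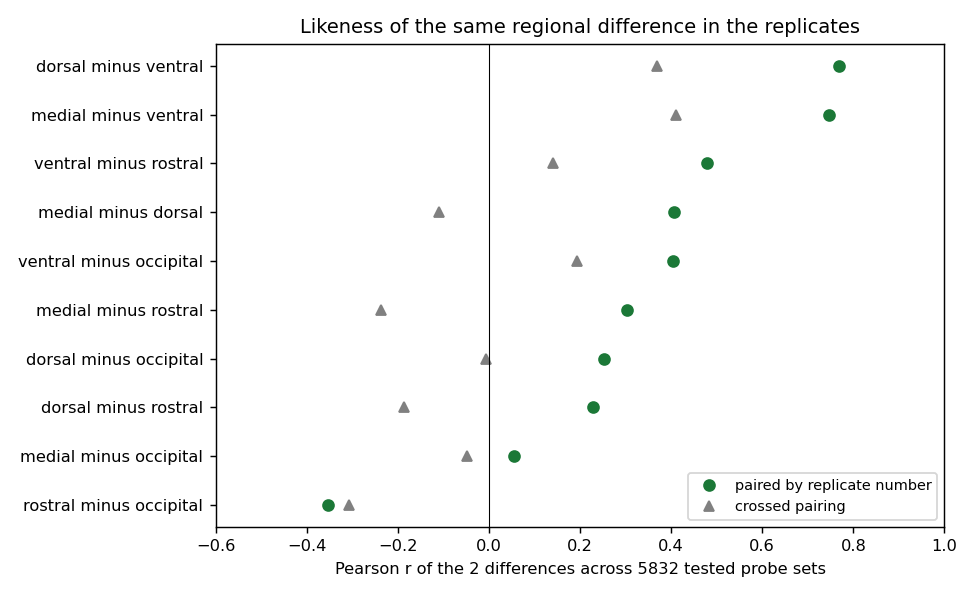
Pearson r between the 2 replicate values of each regional difference across 5832 probe sets, with pairs of regions down the side, circles for pairing by replicate number and triangles for the crossed pairing. Among the 10 pairs of regions, with the hemisphere left out, rostral minus occipital is the 1 with a circle below 0, at -0.354.

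Whole profiles shared this grouping for 1 of the 2 crossed pairs. Rostral 2 and occipital 1 were each the closest of all arrays to the other (r = 0.963 of log2 values). Rostral 1 was closest to dorsal 1 (0.961) and occipital 2 to hemisphere 2 (0.969). Rostral 1 and occipital 2 correlated at 0.944, which was below both matched pairs (0.949 for rostral 1 with occipital 1 and 0.949 for rostral 2 with occipital 2). The 2 rostral arrays correlated at 0.934 and the 2 occipital arrays at 0.936. The replicate 1 minus replicate 2 difference of the rostral piece correlated with the mean of that difference in the other 4 groups at 0.516, and that of the occipital piece at 0.329, while the rostral and occipital ones correlated with each other at -0.060. Equal numbers thus shared a pattern with the other groups in both pieces, but not between these 2 pieces.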

How the data were processed

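The deposited values are linear intensities: per the labels, the authors expressed each probe set as Affymetrix's average difference. The labels' account breaks off there, and the software version is not given in the sources used here. The arrays as deposited had 2% trimmed means of 2500.0, so the authors had scaled them, and no further scaling was applied. Per the labels' protocols, poly(A)+ RNA was copied into biotin-labelled cRNA and each array was scanned 2 times. The molecule label says total RNA.

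A floor of 693.5, taken as the root mean square of the negative values, replaced lower values before conversion to log2. Of 12488 probe sets, 66 controls were left out, and the 5832 above 1387 on at least 2 arrays (46.9%) were tested. The platform annotation gave 5292 of them a single symbol, 212 several and 328 none.

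Tests used limma 3.58.1 in R 4.3.3 over all 12 arrays, two-sided, adjusted by Benjamini and Hochberg over 5832 probe sets. Rostral minus occipital used 6 group means (6 residual degrees of freedom). The reversal used group means, the replicate number and 1 interaction term (4 residual degrees of freedom). Its replicate term was common to all 6 groups. The spread comes from how the replicate differences of the other 4 groups vary. It also holds how far the mean replicate difference of the rostral and occipital pieces lies from theirs. The difference between these pieces is assumed to vary like the rest. Separate animals are not stated, so p-values measure the spread between these arrays, and the number of arrays limits the precision. In simulated data of 5832 probe sets, 40% of rostral minus occipital changes of 1 log2 unit and 89% of those of 2 units were recovered (5 false of 134 calls). Of reversals, 21% of those of 2 log2 units and 85% of those of 4 units were recovered (2 false of 108 calls). The simulated noise was independent between arrays, with no replicate shift shared by the groups. In the data, replicate differences of the other 4 groups correlated at 0.578 to 0.623, so these rates may not hold for the data.

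A gene was named for the largest differences of the same sign (8 per direction) or of opposite signs (8 per direction), for the largest limma reversals (8 per direction), for the 5 smallest p where limma called none, or as a member of a list that passed or was past 2-fold in both replicates, and all tested members of the 2 patterning lists were named. The probe set with the highest mean was used, among those that passed where any did, and a list member counts as called if any of its probe sets passed. Tbr1, Top2a and Rrm2 were named outside this rule. The arrays compared and the lists were chosen with earlier results of these data known. Alternatives were other floors, filters, scalings and variance models, replicate number as a block, other fold limits, single arrays left out and, added after the data were seen, each replicate alone. For the reversal, leaving out either array of a group outside the comparison gave the same fit, and counts of alternatives hold both.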

Additional observations from a re-analysis of the deposited data

Results flagged for a closer look

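The difference between rostral and occipital tissue differed between the replicates by a test of that difference in limma, for 52 probe sets. Among the named genes, the replicate 1 minus replicate 2 contrast was positive, with higher values on rostral 1 and occipital 2, for Crym (5.44), Nr2f2 (4.99), Nr2f1 (4.50), Dcn (4.17), Ccdc80 (3.30), Lpl (3.29), Id1 (3.29), Gabra2 (3.22), Nrp1 (2.40), Calb1 (2.05) and Thy1 (2.02), all in log2 units. It was negative, with higher values on occipital 1 and rostral 2, for the forebrain patterning and guidance genes Zic1 (-5.60), Lhx8 (-5.49), Ntn1 (-3.99), Pou3f4 (-3.85), Sfrp1 (-2.88) and Dlx1 (-1.95). The same direction was found for the striatal genes Penk (-2.75), Pbx3 (-2.59), Six3 (-2.39), Meis2 (-2.38) and Drd2 (-1.81), and for Sprr2e (-3.58), Lratd1 (-3.30), S100a10 (-3.19) and Gucy1b1 (-3.05).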

How the results depend on the processing

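Rostral minus occipital gave 0 limma calls under every alternative fitted on both replicates, with replicate number as a block and with the crossed replicate block included (0 each), and 0 to 0 when single arrays were left out. It gave 1 with replicate 1 only and 3 with replicate 2 only. The main fit of rostral minus occipital left the replicate number out, while the reversal fit included it. The replicate differences of the rostral and the occipital piece correlated with each other at -0.060. With the mean of the other 4 groups they correlated at 0.516 and 0.329. Each of the medial, dorsal, ventral and hemisphere differences correlated with the other 3 of these groups at 0.578 to 0.623. The value of -0.060 alone therefore does not decide whether equal numbers are pairs. For the reversal, 52 calls became 21 with no filter, and 22 to 78 with single arrays left out (22 without either ventral array, 24 without either dorsal array). They became 13 with a replicate term for the rostral and occipital arrays alone in place of the shared one. Other floors, the stricter filter, quantile normalization, the arcsinh scale and the trended variances gave 36 to 50. Of 26 named genes, 7 stayed called in all 16 alternatives (Crym, Gucy1b1, Lhx8, Nr2f1, Ntn1, S100a10 and Zic1). Pou3f4 stayed called in the 14 that tested it (it was not tested at 2 times the floor or with the filter on at least 6 arrays). Leaving out either array of a group outside the comparison gave the same fit, and these counts hold both. The reversal is computed from the rostral and occipital arrays alone. Only another floor, quantile normalization or the arcsinh scale could therefore change its size or sign. The sign was kept in 402 of 402 values, which was fixed in advance for the other alternatives. The 11 probe sets of the same sign became 26 at 0.5 times the floor, 3 at 2 times the floor, 55 past 1.5-fold and 0 past 3-fold. The 73 of opposite sign became 134, 33, 231 and 15 in the same order. The 44 past 2-fold in both crossed differences became 106, 12, 264 and 6, and 29 with the filter on at least 6 arrays and 68 on the arcsinh scale. More or fewer values lie at the floor when it moves, and the cause of the other changes was not tested.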

Other observations

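Some genes with roles in cortical development were close to 2-fold with opposite signs but outside the rule for naming genes, and are given here as values chosen after they were seen. Dlx2, a homeobox factor of interneuron progenitors, differed by -0.94 in replicate 1 and 1.15 in replicate 2, and Dlx5 by -1.28 and 0.95. Dll1, the Notch ligand of newborn neurons, differed by 0.96 and -1.27, and Wnt7b, a Wnt ligand of cortical neurons, by 1.03 and -1.19. The neuronal phosphoprotein gene Syn2 differed by 1.06 and -0.94. The matrix protease gene Htra1 differed by 1.27 and -0.98. Their directions put Dlx2 and Dlx5 with Lhx8 and the others with Nr2f1, and these values carry no test of their own.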
